A study of Mus musculus with 15 samples.

Results

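The osteolineage genes examined here are 10 genes that mark the path from mesenchymal progenitor to bone-forming cell, Runx2, Sp7, Foxc1, Alpl, Ibsp, Spp1, Bglap, Omd, Prelp and Cdh11. They were taken by gene symbol, not by a cut on their values, from the 44674 genes of a bulk RNA-seq count table. The list was drawn up with earlier results of these data known. All 10 also passed the filter on low counts. The table holds 15 libraries in 8 conditions, grown from marrow or lung of 4 to 6 month old mice. The question addressed to these genes is how far cells sorted as bone marrow endothelial cells (BMECs) carry transcripts of the bone lineage, beside mesenchymal stromal cells (MSC) of the same tissue. Cultures of whole bone marrow were sorted at the end of their first growth, called P0, into CD45- tdTomato+ Emcn+ and CD45- tdTomato+ Emcn- cells. Emcn is endomucin, a surface sialomucin of sinusoidal endothelium. Emcn- cells were then grown on as passages P1, P2, P3 and P4. Lung cultures gave the CD45- tdTomato+ Emcn- cells called lung here, where the labels name only the tissue. These mice carried Tie2-CreERT2 and Rosa26-tdTomato, and tamoxifen was injected at 2 to 7 weeks of age, so that tdTomato marks cells, and the descendants of cells, in which the Tie2 promoter was active then. MSC were CD45- tdTomato+ cells from marrow cultures of Osx-Cre;Rosa26-tdTomato mice in a different medium. Osx is an older name of Sp7, one of the 10 genes, so the presence of Sp7 transcript in MSC describes the sort and is not an independent result. The labels call the genotype WT throughout. P4 had 1 library and every other condition 2, which the study describes as independent biological samples. Whether P1, P2 and P3 of one replicate number are successive passages of a single culture is not given in the sources used here.

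In bone, mesenchymal cells become osteoblasts under the transcription factors Runx2 and, downstream of it, Sp7 (osterix). Osteoblasts make alkaline phosphatase (Alpl), which frees phosphate for mineral, and then secrete matrix proteins such as bone sialoprotein (Ibsp), osteopontin (Spp1) and, latest, osteocalcin (Bglap). None of these genes is a classical endothelial marker. Spp1 is also made by macrophages, fibroblasts and many injured tissues, and Runx2, Foxc1, Prelp and Cdh11 are expressed by other mesenchymal cells as well.

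Library totals ran from 9914620 counts in P0 Emcn- replicate 2 to 39718807 in P0 Emcn- replicate 1, so a gene at 0 may still stand at 3 counts, or 0.0755 to 0.303 CPM (counts scaled to the library total). These floors cover counting error only. The labels name 4 batches. Batch d holds the first and batch a the second replicate of the P0 sorts and of lung. Batch b holds P4 together with replicate 1 of each earlier passage, and batch c both MSC libraries with replicate 2 of P1, P2 and P3. Batch and condition cannot be told apart where P0 or lung is set against passaged cells or MSC. The endothelial label was checked against 10 endothelial markers, whose summed level was 10193 to 12232 CPM in P0 Emcn+, 72.7 to 268 CPM in P0 Emcn-, 180.1 to 786 CPM in lung, 43.0 to 352 CPM in MSC and 45.9 to 71.7 CPM in the passaged libraries. VE-cadherin (Cdh5) had 4746 and 63 counts in P0 Emcn- replicates 1 and 2, between 2 and 65 counts in the passaged libraries, and 280 and 5127 in the MSC libraries. The sum of 8 fibroblast markers ran from 230.0 to 321 CPM in P0 Emcn+ and from 4800.2 to 22134 CPM elsewhere. The libraries labelled Emcn- BMEC therefore lack most endothelial marker transcript and are called here by their sort. The 10 endothelial markers include Emcn, so part of the difference in their sum between the P0 sorts describes the sort. At the protein level, the study reports CD31 and VE-cadherin staining of the colony-forming cells of P0 cultures, which lacked Emcn. Because these are bulk samples, fewer cells of a type and less RNA per cell cannot be told apart.

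Of the 10 genes, Ibsp and Spp1 lie near each other on chromosome 5 in the GRCm38 mouse genome. They encode related phosphoproteins of bone matrix. In the GENCODE M21 annotation Ibsp (ENSMUSG00000029306) spans chr5:104299171-104311469 and Spp1 (ENSMUSG00000029304) spans chr5:104435118-104441050, both on the plus strand and 123.6 kb apart. The late gene Bglap (ENSMUSG00000074483) spans chr3:88383501-88384464 on the minus strand. The bases before these 3 genes are shown because the levels of Ibsp, Spp1 and Bglap came apart in these cells, and because the transcription factor Runx2 is itself a member. Its protein binds the core ACCACA, searched on both strands, where the opposite strand reads TGTGGT. They come from RefSeq promoters of GRCm38.p6, run 5′ to 3′ on the gene's strand, and have the core in capitals.
Ibsp upstream, chr5:104299037-104299170, plus strand: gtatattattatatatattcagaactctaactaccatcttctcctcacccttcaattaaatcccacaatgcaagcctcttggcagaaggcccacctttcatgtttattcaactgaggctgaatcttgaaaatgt
Spp1 upstream, chr5:104434861-104435110, plus strand: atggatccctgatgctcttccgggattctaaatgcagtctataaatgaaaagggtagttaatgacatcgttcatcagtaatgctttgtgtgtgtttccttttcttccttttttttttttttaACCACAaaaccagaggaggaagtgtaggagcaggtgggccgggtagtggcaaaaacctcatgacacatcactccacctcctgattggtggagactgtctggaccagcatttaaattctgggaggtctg
Bglap upstream, chr3:88384467-88384716, minus strand: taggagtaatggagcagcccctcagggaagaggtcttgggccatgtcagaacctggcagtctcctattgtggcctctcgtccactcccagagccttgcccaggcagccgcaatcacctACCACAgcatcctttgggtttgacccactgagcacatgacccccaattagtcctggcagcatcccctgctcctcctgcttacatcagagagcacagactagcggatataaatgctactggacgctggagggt
The core begins at base -128 of Spp1 and at base -132 of Bglap, counted from the RefSeq start site, and does not occur on either strand of the Ibsp bases shown or of the whole Ibsp window. Promoter windows of 300 bases, 250 before to 50 after the start, were matched for 8 members, with 10 windows in all. The core stood on at least 1 strand in windows of 4 members, Runx2, Foxc1, Spp1 and Bglap. Of all 32851 RefSeq windows, 16.8% hold it. A match of 6 letters describes the sequence and does not show binding.

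The level of each gene was computed as CPM on the library total, and every fold change and adjusted p below was computed in edgeR (quasi-likelihood F-test), where Benjamini-Hochberg adjustment ran over 19401 genes. A gene is called where the adjusted p is under 0.05 and the log2 fold change exceeds 1.5 in size. Means are given ± SD with n = 2 libraries, and with 2 libraries a group can hold a wide range. Whether the libraries of 2 groups overlapped is given as a description, and its share over all genes was not counted. It rests on the same values as the calls, so for called genes it is no separate support.

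**Figure D1:**
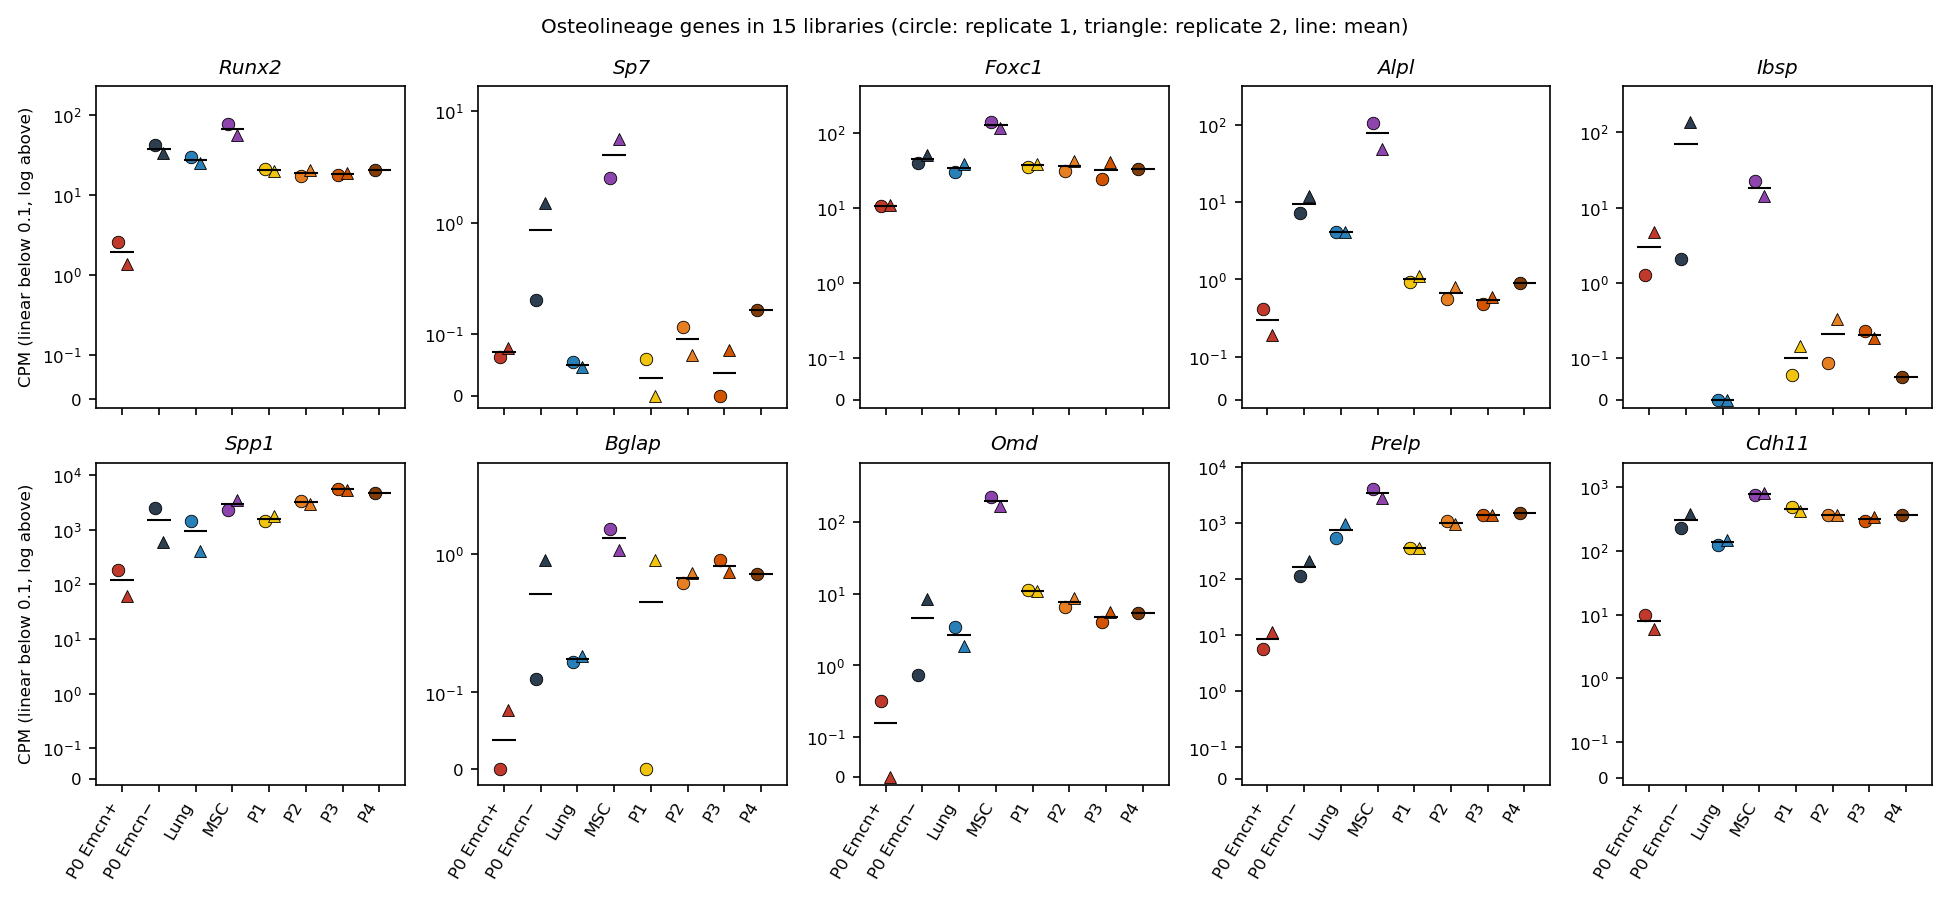
CPM of the 10 osteolineage genes in each of the 15 libraries, on an axis that is linear below 0.1 and logarithmic above, with circles for replicate 1, triangles for replicate 2 and a line for the mean of each condition. P0 Emcn+ is lowest for Runx2, Foxc1, Alpl, Spp1, Omd, Prelp and Cdh11, MSC is highest for 8 genes, and Ibsp in P0 Emcn- differs between its libraries at 2.06 and 137 CPM.

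The transcription factor Runx2, which starts the osteoblast programme, was present in all 15 libraries. It had 77.9 and 56.8 CPM in MSC replicates 1 and 2, 42.3 and 34.1 in P0 Emcn-, 30.3 and 25.6 in lung, and 2.57 and 1.39 in P0 Emcn+. In the passaged libraries it lay between 17.4 and 21.2 CPM. The order of means was MSC, P0 Emcn-, lung, P4, P1, P2, P3 and P0 Emcn+, and MSC, P0 Emcn-, lung and P0 Emcn+ did not overlap their neighbours in it. Each passage overlapped the next in that order, though P3 lay below both P1 and P4. Sp7, which acts after Runx2, was near the limit of detection outside MSC and P0 Emcn-. MSC had 2.50 and 5.60 CPM, P0 Emcn- 0.201 and 1.51 CPM, and the other 11 libraries 0 to 6 counts each, or at most 0.165 CPM. The Sp7 ratio of MSC to P1 from pooled counts, 273 against 2, was 123 with a 95% counting interval of 33.6 to 1017. Counting intervals, here and below, cover counting error in pooled counts and not the spread between libraries. Foxc1, a forkhead factor of mesenchymal and marrow stromal progenitors, had 140.3 and 115 CPM in MSC and 10.6 and 10.8 CPM in P0 Emcn+. P0 Emcn-, lung and the passages lay between 24.6 and 50.2 CPM, and from P1 through P2, lung, P4 and P3, the order of their means, each condition overlapped the next.

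Alkaline phosphatase (Alpl) ranged from a mean of 77.6 ± 40.5 CPM in MSC to 0.303 ± 0.155 CPM in P0 Emcn+. MSC had 106 and 48.9 CPM, P0 Emcn- 7.18 and 11.9, lung 4.14 and 4.10, the passaged libraries 0.480 to 1.11, and P0 Emcn+ 0.412 and 0.193. No P0 Emcn- or lung library overlapped the passaged ones. The matrix genes did not follow one another. Ibsp was absent from both lung libraries (0 counts), between 2 and 10 counts in each passaged library, at 1.27 and 4.79 CPM in P0 Emcn+ and at 22.7 and 14.0 CPM in MSC. In P0 Emcn- it had 2.06 CPM in replicate 1 and 137 CPM in replicate 2. Replicate 2 thus held the highest Ibsp level of the series, and the other P0 Emcn- library lay within the range of P0 Emcn+.

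Spp1, unlike the rest, was highest in late passages. It had 180 and 61.2 CPM in P0 Emcn+, 2449 and 593 in P0 Emcn-, and 1464 and 401 in lung. MSC had 2276 and 3478 CPM, P1 1423 and 1757, P2 3352 and 2955, P3 5592 and 5387, and P4 4657. Both P3 libraries and P4 lay above both MSC libraries, P2 and MSC overlapped, as did P1, P0 Emcn- and lung. Replicate 1, of batch d, exceeded replicate 2, of batch a, by 2.94 to 4.13 times in P0 Emcn+, P0 Emcn- and lung alike. Bglap was at the edge of detection, from 0 to 0.908 CPM outside MSC and at 1.52 and 1.07 CPM in MSC. It shares 330 of its 410 31-base words (80.5%) with Bglap2 and 156 (38.0%) with Bglap3, which lie beside it, so the authors' counting may have divided reads among them and the level of Bglap alone is uncertain. Bglap2 was also highest in MSC, at 4.24 and 1.31 CPM, whereas Bglap3 had 0.253 and 0.335 CPM there and 1.24 to 5.16 CPM in the P0 and lung libraries.

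The small leucine-rich proteoglycans Omd (osteomodulin, a mineral-binding matrix protein) and Prelp (which anchors basement membrane to connective tissue) were both highest in MSC and otherwise differed. Omd had 226 and 169 CPM in MSC, 11.2 and 10.8 in P1, 6.59 and 8.75 in P2, 4.01 and 5.55 in P3, and 5.47 in P4. It had 3.42 and 1.89 CPM in lung, 0.730 and 8.37 in P0 Emcn-, and 10 and 0 counts in P0 Emcn+. MSC stood 17.9 times above P1, the next condition. Prelp had 3955 and 2822 CPM in MSC, 1517 in P4, 1373 and 1394 in P3, 1063 and 957 in P2, 539 and 947 in lung, 361 and 359 in P1, 114 and 213 in P0 Emcn-, and 5.61 and 11.2 in P0 Emcn+. No neighbouring pair in that order overlapped. Cdh11, the osteoblast cadherin, which also joins other mesenchymal cells, had 756 and 803 CPM in MSC, 228 and 375 in P0 Emcn-, 125 and 150 in lung, 291 to 493 in the passaged libraries and 9.95 and 6.07 in P0 Emcn+. Per kilobase of annotated exon, the mean level in MSC was 1746 CPM for Spp1, 937 for Prelp, 88.0 for Omd, 87.5 for Cdh11, 21.9 for Foxc1, 19.2 for Alpl, 8.88 for Ibsp, 7.62 for Runx2, 2.09 for Bglap and 1.19 for Sp7. Per kilobase, Spp1 was the highest member in the mean of every condition. In P0 Emcn- it had 923 CPM per kilobase. The order of Ibsp and Runx2 differed between the P0 Emcn- libraries, with 0.998 and 4.79 CPM per kilobase in replicate 1 and 66.2 and 3.86 in replicate 2.

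In P0 Emcn+ BMECs, 8 of the 10 genes were called lower than in the P0 Emcn- cells sorted beside them and none higher, where 11.4% of all genes tested were called lower and 19.2% called in either direction. Cdh11 (log2 fold change -5.19, SE 0.317, adjusted p = 2.78e-06) and Runx2 (-4.22, SE 0.305, adjusted p = 6.87e-06) differed with the smallest p-values. Alpl had a log2 fold change of -4.87 (adjusted p = 5.88e-05), Prelp of -4.25 (adjusted p = 6.38e-05) and Foxc1 of -2.03 (adjusted p = 0.000162). For these 5 genes every P0 Emcn+ library lay below every P0 Emcn- library, and the ratios within batches d and a were both negative, from -1.89 for Foxc1 in batch d to -5.95 for Cdh11 in batch a. Spp1 (log2 fold change -3.62, SE 0.807, adjusted p = 0.00606) had ratios within batches of -3.77 and -3.28.

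Omd and Ibsp were called lower in P0 Emcn+ as well, and neither call held without P0 Emcn- replicate 2. Omd had a log2 fold change of -4.48 (SE 1.19, adjusted p = 0.0148), with 10 counts in P0 Emcn+ replicate 1 and none in replicate 2. The groups did not overlap, but the ratio within batch d was -1.20, and the change was -2.03 (adjusted p = 0.111) without P0 Emcn- replicate 2 and -3.59 (adjusted p = 0.0789) without P0 Emcn+ replicate 2. Ibsp had a log2 fold change of -4.49 (SE 1.47, adjusted p = 0.0416) although its groups overlapped, since P0 Emcn+ replicate 2 at 4.79 CPM exceeded P0 Emcn- replicate 1 at 2.06 CPM. Without P0 Emcn- replicate 2 the Ibsp change was 0.58, and within batches it was -0.70 in d and -4.84 in a. With the replicate block it was -2.98 (edgeR adjusted p = 0.0564), and the call was also lost without either P0 Emcn+ library and without single libraries of MSC, P1, P2 or P3. Sp7 (log2 fold change -3.29, adjusted p = 0.0535) and Bglap (-3.37, adjusted p = 0.181) were not called, with 4 and 2 counts over both P0 Emcn+ libraries. The median over the 10 genes was -4.24 on the log2 scale and over all genes tested -0.06. Macrophage markers moved in the opposite direction, with a sum of 9 markers of 826 to 985 CPM in P0 Emcn+ and 249.0 to 284 CPM in P0 Emcn-. Their part in the Spp1 result was not tested.

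Of 43 further bone genes, 41 passed the filter, with Mepe and Sost left out. Among the 41, 25 were called lower in P0 Emcn+ and 3 higher. Tnfsf11 (RANKL, the osteoclast-inducing cytokine, log2 fold change -7.81), Sox9 (a chondroprogenitor factor, -6.29) and Col1a1 (type I collagen, -6.12) had the lowest fitted values. Tnfsf11 had 1279 and 9 counts in P0 Emcn- replicates 1 and 2 against 3 and 1 in P0 Emcn+, so its value rests mainly on replicate 1. The 3 higher genes encode secreted signals, the bone morphogenetic proteins Bmp2 (4.90) and Bmp4 (4.89), and Fgf23, a phosphate-regulating hormone, with 210 counts in P0 Emcn+ against 1 in P0 Emcn- (ratio 181, counting interval 32.2 to 7202).

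**Figure D2:**
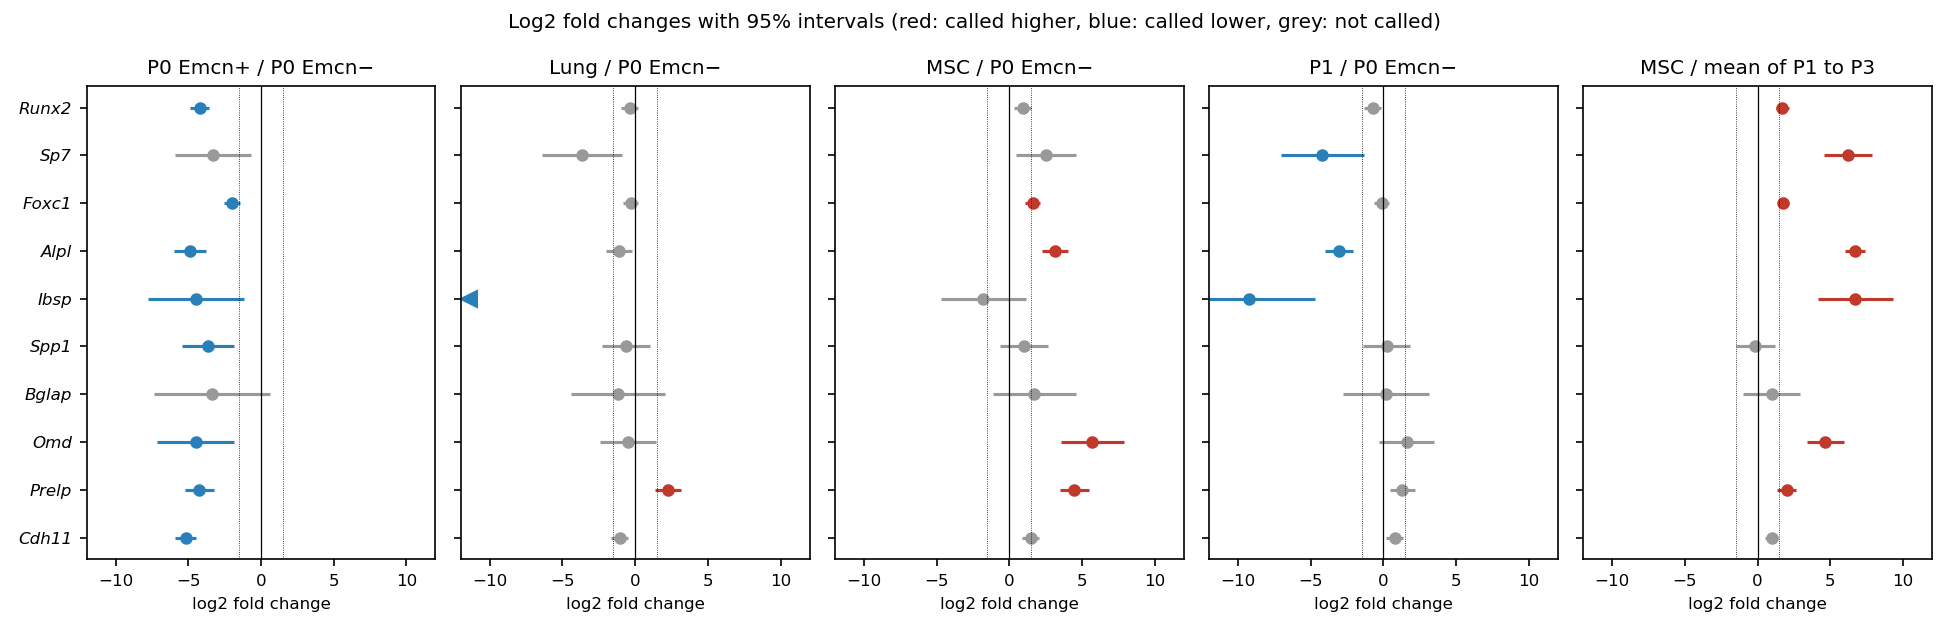
Log2 fold change of each osteolineage gene with its 95% interval in 5 comparisons, red where called higher, blue where called lower and grey otherwise, with dotted lines at 1.5 and -1.5. The arrow marks Ibsp in lung, which had 0 counts there, and the interval of Ibsp in P1 runs past the left edge. All 10 points lie below 0 for P0 Emcn+ against P0 Emcn-, and 9 of 10 lie above 0 for MSC against the mean of P1 to P3.

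Between lung and P0 Emcn- cells, 1 of the 10 genes was called higher in lung and 1 lower, where 3.83% of all genes were called in either direction. Prelp was higher in lung by 2.25 on the log2 scale (SE 0.402, adjusted p = 0.0116), with within-batch ratios of 2.24 and 2.16. This call was lost without Lung replicate 2 (1.81, adjusted p = 0.0542) and without P0 Emcn- replicate 1 (1.87, adjusted p = 0.063). Ibsp had 0 counts in lung against 1440 over both P0 Emcn- libraries and was at least 560.0-fold lower in lung from 3 counts over the group, or at least 39.8-fold lower from the 82 counts of P0 Emcn- replicate 1 alone (edgeR adjusted p = 0.0234, or 0.134 and 0.0919 without Lung replicates 1 and 2). Cdh11 (log2 fold change -1.07, adjusted p = 0.0476) passed the p-value but not the fold limit. For Runx2 the difference was -0.38 with a 95% interval of -0.96 to 0.20, and for Foxc1 -0.32 with an interval of -0.84 to 0.21. For Omd the within-batch ratios had opposite signs, 2.23 in d and -2.15 in a. The median over the 10 genes was -0.85, also with Ibsp set at its bound, and over all genes 0. The further bone genes divided evenly, 4 called higher and 4 lower. Bmp4 (log2 fold change 3.95), the matrix proteoglycan Aspn (2.49) and N-cadherin (Cdh2, 2.04) led those higher in lung. Of those lower, Dlx3, a homeobox factor, had 0 counts in lung and was at least 31.1-fold lower, while Dlx5, a homeobox factor that acts with Runx2 in osteoblasts, was at -2.99 and Tnfrsf11b (osteoprotegerin, the decoy receptor of RANKL) at -2.50. The lung comparison uses the same P0 Emcn- libraries as the one with P0 Emcn+.

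Against P0 Emcn-, MSC had 11.3% of all genes called higher and 18.7% called in either direction. Of the 10 genes, 4 were called higher and none lower. They were Omd (log2 fold change 5.72, SE 0.961, adjusted p = 0.00169), Prelp (4.48, SE 0.444, adjusted p = 8.66e-05), Alpl (3.15, SE 0.412, adjusted p = 0.000439) and Foxc1 (1.61, SE 0.241, adjusted p = 0.000911). For all 4 genes both MSC libraries exceeded both P0 Emcn- libraries. Foxc1 came under the fold limit without MSC replicate 1 (1.43) and without P0 Emcn- replicate 1 (1.44). Cdh11 (log2 fold change 1.46, adjusted p = 0.00264) and Runx2 (0.91, adjusted p = 0.0221) passed the p-value only. Sp7 (2.53, adjusted p = 0.0569), Spp1 (1.00, adjusted p = 0.309) and Bglap (1.72, adjusted p = 0.32) were not called. Ibsp had -1.81 with a 95% interval of -4.73 to 1.12, and this difference was 3.22 without P0 Emcn- replicate 2 and -2.80 without replicate 1. Without P0 Emcn- replicate 2, 7 of the 10 genes were called. The median over the 10 genes was 1.66 and over all genes 0.01.

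Other markers moved with the MSC label. The sum of 5 chondrocyte markers was 2618 to 2832 CPM in MSC and 14.1 to 73.7 CPM in P0 Emcn-, of which type II collagen (Col2a1) made up 1418 and 2095 CPM in MSC, while aggrecan (Acan) had 37 and 5 counts in MSC and 0 in every other library. Their part in these results was not tested. The same P0 Emcn- libraries again served as the reference. Of the 41 further bone genes, 11 were called higher in MSC and 4 lower. Tnfrsf11b (log2 fold change 6.65) and Aspn (6.23) led, followed by the homeobox factor Msx2 with 107 counts against 1 (ratio 77.6, counting interval 13.6 to 3091). Smpd3 (a sphingomyelinase needed for mineralisation, -6.39, with 16.9 and 252 CPM in P0 Emcn- replicates 1 and 2), Bglap3 (-3.46) and Ifitm5 (an osteoblast membrane protein, -2.45) were lower in MSC.

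In passaged Emcn- cells Alpl and Ibsp were lower than at P0, and from P2 on Prelp was higher. Of the 10 genes, 3 were called lower and none higher in P1 than in P0 Emcn-, where 3.07% of all genes were called lower and 8.84% in either direction. Alpl (log2 fold change -3.05, SE 0.437, adjusted p = 0.00161) fell in both libraries, from 9.54 ± 3.34 to 1.02 ± 0.134 CPM. Ibsp fell by 9.24 on the log2 scale (SE 1.99, adjusted p = 0.0155), from 1440 counts over the P0 Emcn- libraries to 6 counts over the P1 libraries. Sp7 (-4.21, SE 1.29, adjusted p = 0.0493) went from 23 counts to 2, a ratio of P0 Emcn- to P1 of 14.2 with a counting interval of 3.52 to 125. The Sp7 call was lost in 13 of 15 fits that left out 1 library each, among them the fit without P0 Emcn- replicate 2 (-2.38, adjusted p = 0.189). Without that library the Ibsp change was -4.21 (adjusted p = 0.0188), since P0 Emcn- replicate 1 held 82 of the 1440 counts. Without P1 replicates 1 and 2 in turn, the adjusted p was 0.116 and 0.19 for Sp7 and 0.118 and 0.0895 for Ibsp. Prelp was higher by 1.30 (adjusted p = 0.0465) and stayed under the fold limit. Runx2 differed by -0.73 (adjusted p = 0.0789) and Foxc1 by -0.12 with a 95% interval of -0.64 to 0.41. Among the further bone genes, 1 was called higher in P1, the gap junction gene Gja1 (2.00). Called lower were 6, led by Phospho1 (a phosphatase of matrix vesicles, -2.89), Col1a1 (-2.81) and Bglap3 (-2.46). Marker sums moved in the same comparison. From P0 Emcn- to P1 the fibroblast sum went from 17197 and 22134 to 6648 and 7172 CPM, the mural sum from 715 and 1379 to 357 and 386 CPM, and the reticular stroma sum from 2056 and 2665 to 1176 and 1356 CPM (lower and higher library each). The fibroblast sum includes Col1a1 and Col1a2. In replicates 1 and 2 of P0 Emcn- and then P1, its defining marker Pdgfra had 1147, 1566, 1472 and 1319 CPM. Dcn had 1108, 2478, 1573 and 1629 CPM. The defining reticular markers had 4.53, 13.3, 7.02 and 41.1 CPM (Lepr) and 41.5, 54.3, 48.3 and 83.9 CPM (Adipoq). For each of these genes the 2 conditions overlapped. The defining mural markers, Rgs5 and Myh11, were at 2.92 CPM or less. Their part in these results was not tested.

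Set against the same P0 Emcn- libraries, P2 had 1 of the 10 genes called higher and 2 called lower (12% of all genes called). P3 had 1 called higher and 3 called lower (13.2%), and P4 had 1 called higher and 2 called lower (9.68%). The higher gene was Prelp each time, with log2 fold changes of 2.84 (adjusted p = 0.00135), 3.28 (adjusted p = 0.000568) and 3.45 (adjusted p = 0.00108). Alpl was lower each time, with log2 fold changes of -3.59, -3.94 and -3.14 in P2, P3 and P4, and Ibsp had -8.16 and -8.15 in P2 and P3. In P4 Ibsp had 2 counts, a ratio of P0 Emcn- to P4 of 528 with a counting interval of 146 to 4361, or of 37.5 (10.1 to 315) from P0 Emcn- replicate 1 alone. Without P0 Emcn- replicate 2 the Ibsp changes were -3.12 in P2, -3.11 in P3 and -4.94 in P4. The Ibsp call in P4 was lost in 10 of 14 fits with 1 library left out. Sp7 was called lower in P3 (-4.15, adjusted p = 0.0409), where it had 2 counts in all, and this call was lost in 9 of 15 fits with 1 library left out, with a change of -2.31 (adjusted p = 0.191) without P0 Emcn- replicate 2. The Ibsp call was lost in P2 and in P3 without either library of that passage, with adjusted p-values of 0.107 and 0.0709 in P2 and of 0.0926 and 0.0797 in P3.

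Within the passages, where libraries can be compared inside a batch, none of the 10 genes was called between P3 and P1 by edgeR, where 0.222% of all genes were. At an unadjusted p under 0.05 there were 2, Prelp (log2 fold change 1.98, SE 0.398, edgeR adjusted p = 0.0785) and Spp1 (1.83, SE 0.75, edgeR adjusted p = 0.325). DESeq2 called Prelp (2.00, adjusted p = 6.8e-05). With batch terms in the edgeR fit, which is the paired form of the test, both were called. Prelp was at 1.98 (adjusted p = 0.0174) and Spp1 at 1.82 (adjusted p = 0.0276). That fit called 106 of the 19401 genes tested. Ratios within batches b and c were 1.93 and 1.96 for Prelp and 1.97 and 1.62 for Spp1. Over P1 to P4, a fit of the 7 passaged libraries with passage as a number and a batch term, chosen after seeing the data, gave slopes per passage of 0.76 for Prelp (SE 0.148, adjusted p = 0.0148), 0.68 for Spp1 (SE 0.129, adjusted p = 0.0135) and -0.39 for Omd (SE 0.0933, adjusted p = 0.0256) on the log2 scale. Runx2 had a slope of 0.00 (SE 0.0436) and Foxc1 of -0.02 (SE 0.0566). Under the same fold limit over 2 passages, Prelp was called in that fit, beside 2.49% of 17502 genes, and Sp7 was not tested there. The macrophage marker sum was 83.1 and 250.4 CPM in P1, 43.2 and 44.8 in P2, 15.5 and 19.6 in P3 and 12.6 in P4. The Spp1 level was higher in P2, P3 and P4 than in P1. The part of macrophages in the level of Spp1 was not tested.

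**Figure D3:**
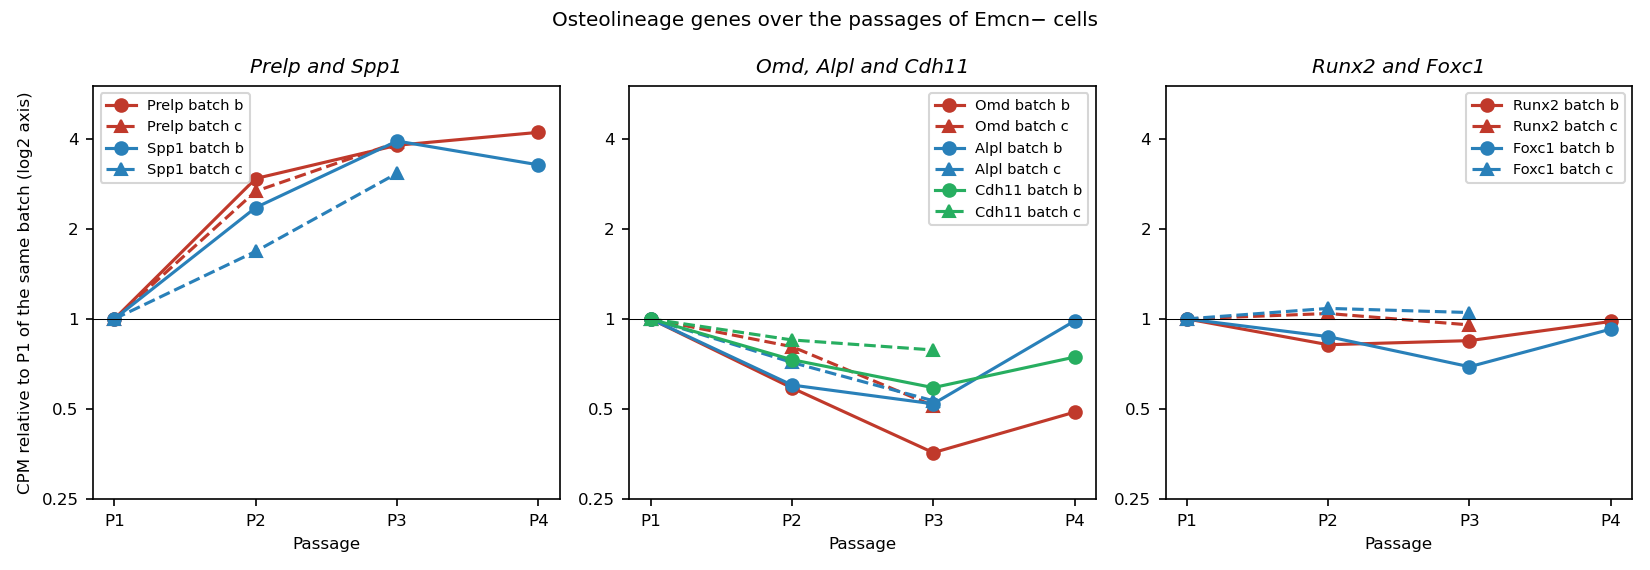
CPM of 7 osteolineage genes at P1 to P4, divided by the P1 value of the same batch, on a log2 axis, with solid lines and circles for batch b and dashed lines and triangles for batch c. In both batches Prelp and Spp1 were above and Omd, Alpl and Cdh11 below their P1 level at P3, while the log2 ratios at P3 were -0.24 and -0.07 for Runx2 and -0.53 and 0.07 for Foxc1.

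Against the mean of P1 to P3, MSC had 8.42% of all genes called higher and 14.2% called in either direction. Of the 10 genes, 7 were called higher and none lower. Batch c holds both MSC libraries and 3 passaged ones, and log2 ratios within that batch are given second. Ibsp (log2 fold change 6.71, within batch 6.38), Alpl (6.68 and 6.54), Sp7 (6.22 and 6.44) and Omd (4.66 and 4.56) differed most. Adjusted p-values for these were 0.00238, 1.45e-06, 0.000278 and 0.000327. Sp7 in MSC describes the sort, as said above, and is not an independent result, and the 7 include it. Prelp (2.00 and 1.91, adjusted p = 0.000713), Foxc1 (1.77 and 1.67, adjusted p = 0.000102) and Runx2 (1.70 and 1.74, adjusted p = 0.000218) differed less. In all 7, both MSC libraries lay above every P1, P2 and P3 library. Without MSC replicate 1 the Runx2 change was 1.43, under the fold limit. Cdh11 (0.97, adjusted p = 0.00531) passed the p-value only. Spp1 differed by -0.17 (SE 0.6, adjusted p = 0.866), and Bglap by 0.96 with an interval of -1.02 to 2.95. The median over the 10 genes was 1.89 and over all genes 0.01. Of the further bone genes, 16 were called higher in MSC and 2 lower. Tnfrsf11b (5.46) and Enpp1 (which makes the mineral inhibitor pyrophosphate, 5.30) were among the 3 that rose farthest, with Fgf23 at 32 counts in MSC against 1 in P1 to P3 (ratio 88.0, counting interval 14.7 to 3584). Smpd3 (-7.30) and Twist2 (a basic helix-loop-helix factor of mesenchyme, -2.01) were lower.

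**Figure D4:**
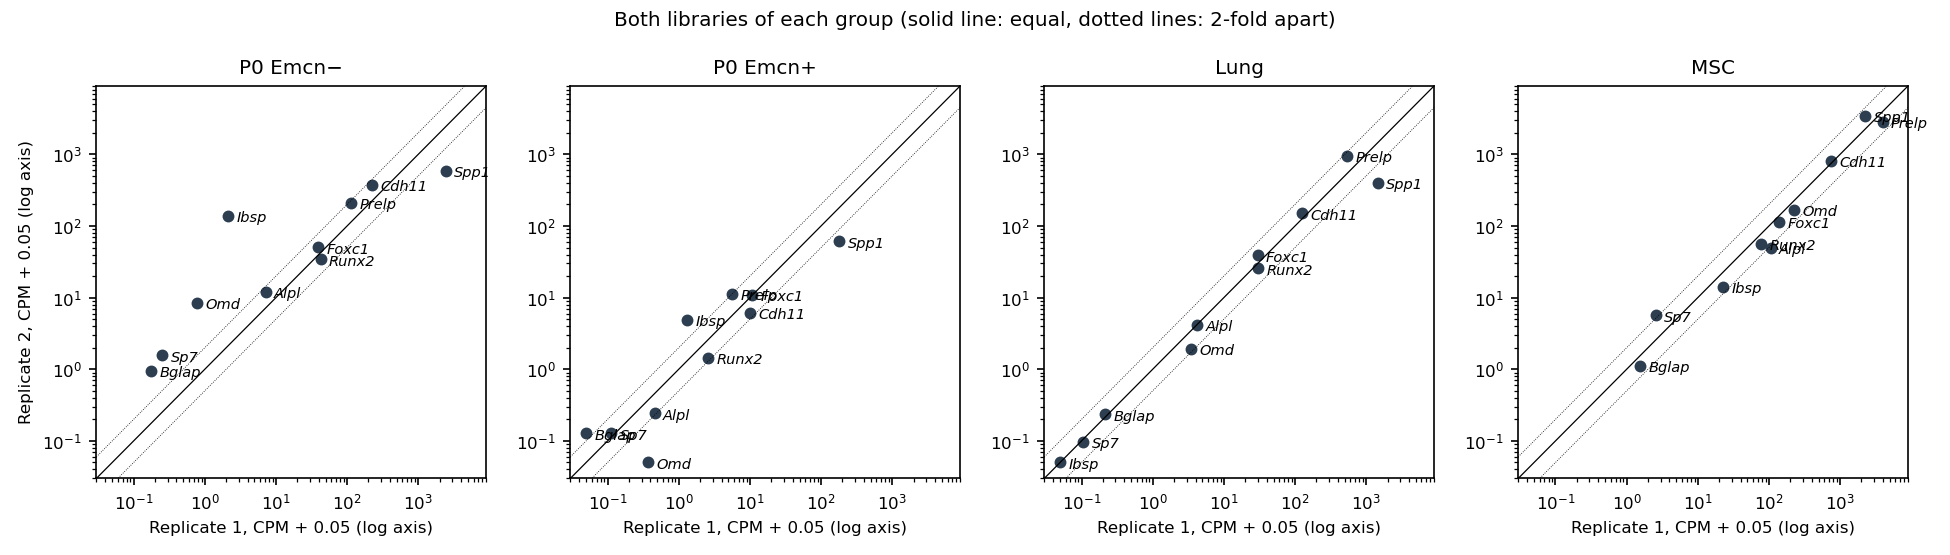
CPM plus 0.05 of the 10 osteolineage genes in replicate 1 against replicate 2 on log axes for the 4 populations sequenced without passage, with a solid line at equal levels and dotted lines at a 2-fold difference. In P0 Emcn-, Ibsp and Omd lie far above the solid line and Spp1 far below it.

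The 10 genes did not vary together between the libraries of a condition. Between P0 Emcn- replicates, 5 of the 10 genes differed by more than 1 on the log2(CPM + 0.5) scale, where 10.5% of all genes tested did. Replicate 2 was higher for Ibsp by 5.74, Omd by 2.85, Sp7 by 1.52 and Bglap by 1.17, and lower for Spp1 by 2.04. For Runx2 the difference was -0.31 and for Foxc1 0.35. In P0 Emcn+ 2 genes passed that size, Ibsp (1.58) and Spp1 (-1.55), with the signs they had in P0 Emcn-, where 4.21% of all genes did. In lung it was Spp1 (-1.87, 6.73% of all genes), in MSC Alpl (-1.11) and Sp7 (1.02, 6.35% of all genes), in P1 Bglap (1.48, 2.31% of all genes), and in P2 and P3 none of the 10. Replicate 2 is the shallower P0 Emcn- library and was of another batch, and it held 63 Cdh5 counts where replicate 1 held 4746. The study's methods also name a different sequencing instrument for the first batch of replicates than for later ones, without tying these to the labelled batches. The part of these in the differences was not tested.

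Over the 15 libraries, members were compared by Pearson correlations of log2(CPM + 0.5). The correlations ran from -0.25 for Ibsp and Spp1, both on chromosome 5, to 0.91 for Runx2 and Foxc1. These are descriptions over 15 libraries that share conditions and batches. The genes most like each member over these libraries were Lox (r = 0.991) and Bicc1 (0.977) for Runx2, Slc22a19 (0.953) and Meltf (0.951) for Sp7, and Mmp16 (0.982) and Tspan3 (0.975) for Foxc1. They were Rgs4 (0.987) and Farp1 (0.969) for Alpl, Bckdhb (0.918) and Mybpc1 (0.909) for Ibsp, Katnal2 (0.946) and Dap (0.942) for Spp1, and Gm15894 (0.879) and Tmem30c (0.862) for Bglap. For Omd they were Abi3bp (0.975) and Ttc30b (0.972), for Prelp Cryab (0.979) and Fas (0.978), and for Cdh11 Pygo1 (0.981) and Has2 (0.979). The osteoclast marker sum, over 6 genes, was 8.18 to 12.1 CPM in P0 Emcn+ and 109.6 to 301 CPM elsewhere, while its defining markers Calcr and Ocstamp had 0 to 2 and 1 to 16 counts per library. The sum of 4 markers of reticular marrow stroma was 304 to 481 CPM in P0 Emcn+ and 425 to 4986 CPM elsewhere, and that of 7 mural markers 28.5 to 46.1 CPM and 357 to 1919 CPM.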

How the data were processed

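Bulk RNA-seq libraries were made with the KAPA RNA HyperPrep kit. The authors mapped reads to GRCm38 with STAR, estimated abundance with Salmon and deposited whole-number counts per gene without normalization, derived by the methods from the Salmon estimates through tximport. The rounding is not described. CPM was computed on library totals. The 8 genes with a blank symbol have identifiers and were kept. GENCODE M21 holds 44118 of the 44674 identifiers.

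The test was edgeR 4.0.16 in R 4.3.3, by the quasi-likelihood method, with TMM scaling. Genes had to pass filterByExpr at a minimum count of 10 and a minimum total of 15. All 15 libraries entered a single fit in which each condition had its own coefficient, leaving 7 residual degrees of freedom (3.07 prior). The script was tested on simulated data. Counts of replicates disagreed beyond sampling noise, the chi-square statistic divided by its degrees of freedom being 39.2 to 130.3. Cells were grouped by the labels. Within P0 and lung, and within the passages, the labels give same-numbered libraries a shared batch. Deviations from group means correlated by 0.139 to 0.209 among P0 and lung and by 0.354 to 0.451 among passages. The numbers thus pair the samples by batch within each of these sets and do not show a shared culture. The main fit held no batch term.

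Alternatives were DESeq2 1.42.0, ashr 2.2.63 shrinkage as in the study, RLE factors, no filter, a stricter filter (50 counts in 2 libraries), the replicate block (1 centred batch term for the P0 and lung libraries and 1 for the rest), fits restricted to the groups compared, the adjusted p alone, TMM-scaled CPM and leaving out single libraries. The text names the 10 members, the 3 called further bone genes with the largest change in each direction, Bglap2 and Bglap3, the 2 genes most correlated with each member, and marker lists. The members and all lists were chosen with earlier results of these data known.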

Additional observations from a re-analysis of the deposited data

How the results depend on the processing

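With the replicate block, 2 members and 1 further bone gene were called between P3 and P1, beside 106 of the 19401 genes tested. The fit without it called 0 and 0. The slope over P1 to P4 with replicate block gave 1 and 2, with a Runx2 change over 2 passages of 0.0029. The block also ended the call of Ibsp in P0 Emcn+, and within the P0 and lung libraries it changed no other member's call. Between P0 and passaged or MSC libraries, which share no batch, the block cannot estimate a batch difference. Its values there (Foxc1 1.43 and Cdh11 1.51 in MSC, Sp7 -3.92 in P1, each on the other side of a limit) rest on centring each pair of batches and are not batch-corrected. In the same comparison no filter gave 1 and 1, only the compared groups 2 and 1, DESeq2's Wald test 1 and 2, and ashr 1 and 1. In a fit of only the compared groups, the members called were 0 for lung, 1 for P1, 2 for P3 and 0 for P4 against P0 Emcn-, and the further bone genes called were 0 for lung, 9 for MSC and 3 for P1. At the adjusted p alone, 24 further bone genes differed between MSC and P0 Emcn-. The smaller fits had fewer libraries; the cause of the other changes was not tested.

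When libraries were dropped singly, the members called ranged from 6 to 9 for P0 Emcn+, 0 to 2 for lung, 3 to 7 for MSC, 1 to 4 for P1, 2 to 4 for P2, 2 to 5 for P3 and 2 to 4 for P4 against P0 Emcn-, from 0 to 1 between P3 and P1, and from 6 to 8 for MSC against P1 to P3. The further bone genes called ranged from 26 to 30 for P0 Emcn+, 4 to 8 for lung, 10 to 21 for MSC and 2 to 12 for P1 against P0 Emcn-, from 0 to 1 between P3 and P1, and from 9 to 18 for MSC against P1 to P3. The members called fell to 1 without Lung replicate 1 and 0 without Lung replicate 2, to 1 in P1 without either P1 library, and to 2 in P3 without either P3 library, and rose to 7 in MSC without P0 Emcn- replicate 2 and to 1 between P3 and P1 without either P0 Emcn- library. The further bone genes fell to 4 without Lung replicate 1 and to 9 for MSC against P1 to P3 without MSC replicate 1, and in P1 were 2 and 4 without P1 replicates 1 and 2, and 3 and 12 without P0 Emcn- replicates 1 and 2. Directions turned for some log2 fold changes. Against P0 Emcn-, Ibsp ranged from -5.70 to 0.58 in P0 Emcn+ and from -2.80 to 3.22 in MSC. In lung, Spp1 ranged from -1.89 to 0.74, Bglap from -2.28 to 0.51 and Omd from -1.55 to 1.94, and in P1, Foxc1 ranged from -0.29 to 0.040, Spp1 from -0.49 to 1.57 and Bglap from -6.58 to 1.87. Between P3 and P1, Sp7 ranged from -3.19 to 3.23, Foxc1 from -0.52 to 0.13 and Bglap from -0.061 to 7.75, and between MSC and P1 to P3, Spp1 ranged from -0.47 to 0.083. None of these but Ibsp in P0 Emcn+ was a call.

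Depth limited Sp7, Bglap and Ibsp, which had 0 to 6, 0 to 32 and 0 to 10 counts in the passaged and lung libraries. Of the single-gene alternatives counted, 1484 kept direction and side of the limits, 71 lost a call, 31 gained one and 16 turned. The count leaves out genes not tested in a setting. It also leaves out members not called in P2, P3 or P4 against P0 Emcn-, so calls gained there are not in it. On TMM-scaled library sizes, the 80 mean levels were 0.921 to 1.08 times those on library totals, and 67 moved by less than the spread.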

Other observations

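Genes beside the members were read after their values had been seen. Omd lies on chromosome 13 between 2 other small leucine-rich proteoglycans, 14.9 kb from Aspn (asporin) and 15.2 kb from Ogn (osteoglycin). Both were lowest in P0 Emcn+, at 0.380 and 0.271 CPM for Aspn and at 8.37 and 7.85 CPM for Ogn, and highest in MSC, at 964 and 380.2 CPM for Aspn and at 3571 and 1621 CPM for Ogn. From P1 to P3 Ogn went from 1454 and 1342 to 182 and 459 CPM, where Aspn went from 15.3 and 16.1 to 22.7 and 20.7 CPM. In P0 Emcn-, Ogn had 148 CPM in replicate 1 and 894 CPM in replicate 2, the same order as Omd, while Aspn had 9.94 and 9.18 CPM.

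Of the secreted phosphoprotein genes around Ibsp on chromosome 5, Dmp1, which lies 85.1 kb before it, had 1.31 and 1.92 CPM in P0 Emcn-, 2.45 to 3.52 CPM in the passaged libraries and 3.40 and 5.08 CPM in MSC, and Mepe, 13.9 kb after it, had 0 counts in 13 of 15 libraries. Smpd3 was higher in the passaged libraries, at 154 to 306 CPM, than in MSC, at 0.814 and 2.19 CPM, and in P0 Emcn- it had 16.9 and 252 CPM in replicates 1 and 2.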
